A study of Bos taurus with 20 samples.

Results

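Receptor tyrosine kinases are the family of cell-surface receptors that carry their own tyrosine kinase domain. The 37 genes described here were chosen by symbol, with the receptors for PDGF, CSF1 and ephrins left out. 36 of them had a row among the 33063 named genes of the count table, and LTK was not analysed here. Gene-level counts do not tell apart the full-length and truncated or soluble forms that several of these genes, such as NTRK2 and FLT1, are known to make.

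RNA sequencing was carried out on 20 clonal populations of bovine mesenchymal stem cells (MSCs), each grown from a single sorted cell in medium with fetal bovine serum and basic FGF, and none had been induced to differentiate when RNA was taken. The MSCs came from visceral fat of young Holstein Friesian x Aberdeen Angus calves. By the sample labels, the 10 adipogenic (A) clones stained strongly with Oil Red O, a lipid dye, after adipogenic induction of part of their cells, and the 10 non-adipogenic (N) clones did not. The study's own text instead names BODIPY, another lipid dye, for the ranking of A clones, and counts as N the clones that formed no adipocytes in a first test. Animals 17 and 20 gave 1 A and 1 N clone each, and animals 22 and 23 gave 4 A and 4 N clones each, so that the clones of an animal share its MSC preparation and p-values measure the spread among these clones. Clones are named by animal and clone number.

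A ligand that binds the outside of such a receptor usually brings receptor molecules together, after which the kinases phosphorylate each other and recruit adaptor proteins that switch on the RAS-ERK, PI3K-AKT and phospholipase C pathways. Inhibitors that these pathways themselves induce, such as the Sprouty, SPRED and DUSP proteins, then dampen the signal. In cells of the adipose lineage, insulin and IGF1 receptors are best known for promoting fat cell formation, while FGF and EGF receptors are known mainly for control of growth and of the timing of differentiation.

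Total counts ran from 14615493 to 29185355 in A clones (median 16112862) and from 14908802 to 43111345 in N clones, with N clone 22-18 the deepest. The level of a gene in a clone is stated as CPM, its count scaled for the size and composition of the library, and are compared between clones only, since gene lengths were not used. A count of 0 allows a level of up to 0.0764 to 0.216 CPM, depending on the clone, taken as 3 counts and covering counting error only. Of 6 MSC markers none passed the test between A and N clones. The defining markers CLDN5 (endothelium) and SOX10 (Schwann cells) had no count in any clone, and PTPRC (blood cells) had 8 in all. N clones 22-5 and 22-9 stood apart: 6 mesothelial and epithelial markers summed to 8500 and 5870 CPM in them, against at most 276 CPM in the other N clones and 976 CPM in A clone 22-11. 2 of the 5 pericyte and smooth muscle markers tested, CSPG4 and MYH11, were higher in A clones (log2 fold changes 1.76 and 3.04, adjusted p = 0.0134 and 0.0484). The list sums were 916 to 8370 CPM in A and 129 to 6130 CPM in N clones. The part of this expression in the results was not tested. Of the 6 mesothelial and epithelial markers only MSLN passed, lower in A clones (-1.97, adjusted p = 0.0393), with 418 and 344 CPM in N clones 22-5 and 22-9. KRT8 and KRT19 had positive log2 fold changes (0.72 and 1.16) and KRT18, WT1 and UPK3B negative ones (adjusted p = 0.16 to 0.893). Marker tests are given for all clones only. Results that N clones 22-5 and 22-9 touch are given with and without them.

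14 receptor genes were at 1 CPM or more in all 20 clones: EGFR, ERBB2, FGFR1, MET, AXL, TYRO3, IGF1R, DDR1, DDR2, ROR1, ROR2, PTK7, RYK and LMTK2. Another 8 stayed under 1 CPM in every clone, namely NTRK3, FGFR4, FLT3, FLT4, KDR, TIE1, MUSK and STYK1. The remaining 14 were at 1 CPM or more in some clones and not in others. A single clone carried 20 to 23 receptor genes at that level in the A group (median 21) and 18 to 24 in the N group (median 20).

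**Figure D1:**
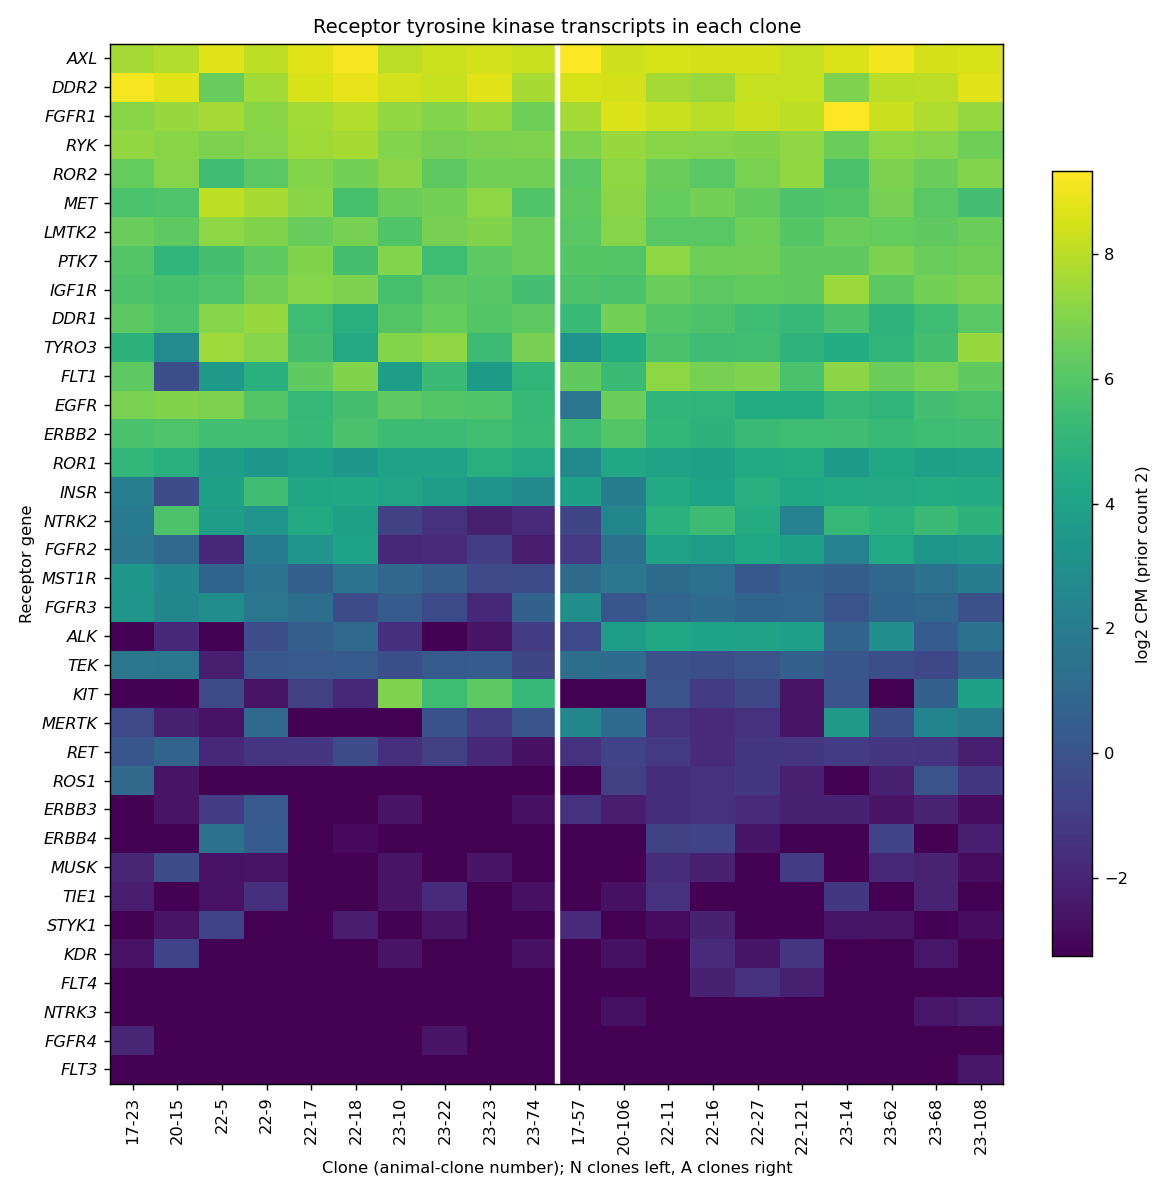
Level of each receptor gene (rows, ordered by mean log2 CPM for display, with gene length not used) in each clone (columns, N clones left and A clones right of the white line), as log2 CPM with a prior count of 2. KIT is bright in the 4 N clones of animal 23, and ALK is brighter in the A clones, with clones 17-57, 23-14 and 23-68 close to the N clones.

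The comparison of A with N clones asked which receptor transcripts went with adipogenic capacity. With animal as a term in the model, 23 of the 36 genes had enough counts to be tested, and 4 of them passed an adjusted p of 0.05: ALK, FGFR1 and FLT1 were higher in A clones and EGFR was lower. That is 17.4% of the receptor genes tested, against 20.6% of all 12900 genes tested, of which 10.3% were higher and 10.3% lower. At a change of at least 2-fold as well, ALK, FLT1 and EGFR remained, where 3.95% of all genes were higher and 1.81% lower. The median log2 fold change was 0.07 over the 23 receptor genes and -0.01 over all genes.

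The receptor genes varied among clones beyond the fitted terms for animal and condition. Their median residual SD on the log2 scale was 0.679, against 0.338 over all genes tested. Of the 23, 21 were above the median of all genes. This SD includes any difference between animals in the A against N change. It is thus not only the spread among clones of the same animal and type. The receptor genes and all genes were not matched for level, so a larger SD is not shown to be particular to the receptors. NTRK2 had the largest residual SD of the 23 at 2.29, followed by FGFR2 at 1.91 and MERTK at 1.60, while ERBB2 at 0.191 and RYK at 0.268 were the most even. No receptor gene separated all A from all N clones, as 0.318% of all genes did. Over the animals, ALK, FGFR1, FLT1, MERTK and PTK7 had a higher mean log2 level in A clones in 4 of 4 animals. EGFR had a lower mean in 4 of 4, and the other 17 were mixed. In the animals that gave a single clone of each type, the mean is the level of that clone. The share of all genes with a common direction in every animal was not computed. These counts thus say nothing particular to the receptors.

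**Figure D2:**
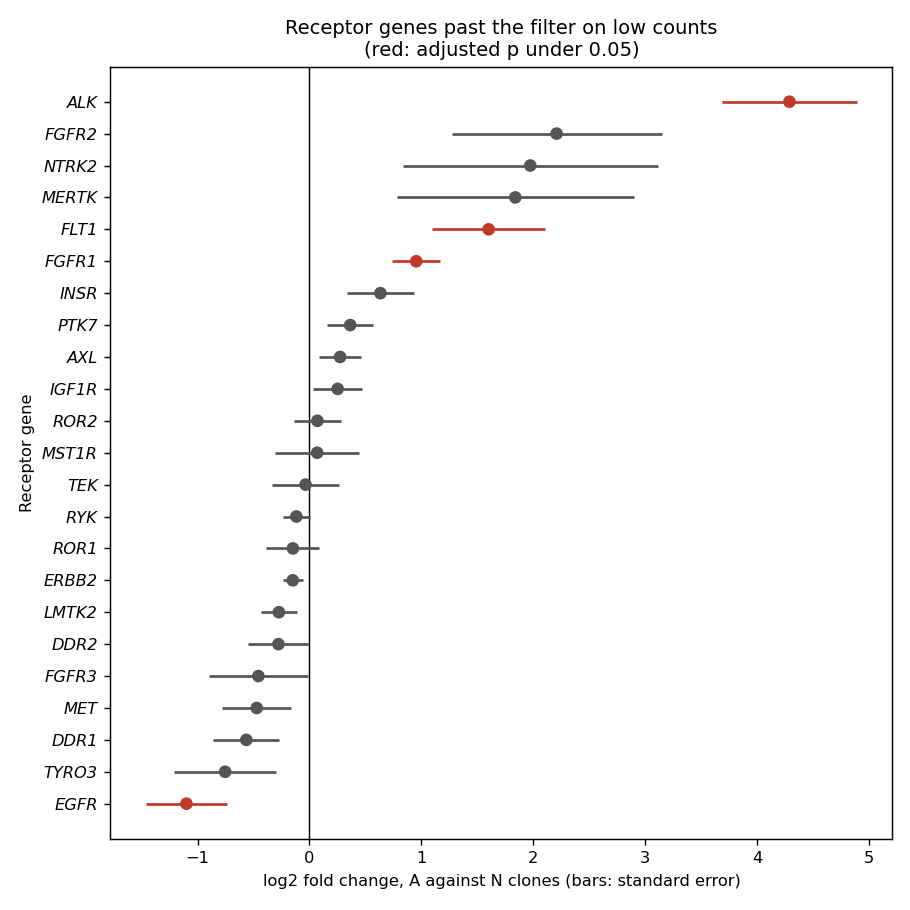
Log2 fold change between A and N clones with its standard error (bars) for the 23 receptor genes tested, with an adjusted p under 0.05 in red. ALK lies farthest from 0 at 4.29, EGFR is the only red point on the negative side at -1.10, and the bars of NTRK2, FGFR2 and MERTK are the widest of the points in grey.

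ALK, the receptor for the ALKAL cytokines and best known from the developing nervous system and from fusion genes in lymphoma and lung cancer, was higher in A clones. Its level ran from 0.613 to 19.5 CPM in A clones (median 10.4) and from 0 to 1.96 CPM in N clones (median 0.21). The A clones of animal 22 were at 14.5 to 19.5 CPM against 0 to 1.96 CPM in its N clones, and those of animal 23 at 1.22 to 7.29 CPM against 0 to 0.389 CPM. The A clones of animal 22 were thus the high ones and those of animal 23 lower. A clone 20-106 was at 13.6 CPM beside 0.184 CPM in N clone 20-15. A clone 17-57 was at 0.613 CPM, the lowest of the A clones, beside a count of 0 in N clone 17-23.

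All A clones were thus above all N clones of their own animal for ALK, a pattern seen for no other receptor gene and for 1.29% of all genes tested in this direction (0.736% in the other). Across animals the groups overlapped, with 7 of 10 A clones above all N clones. The log2 fold change was 4.29 (SE 0.603, adjusted p = 0.000556). It stayed past the threshold without any single clone, at 4.04 to 4.58, and was 3.98 in animal 22 alone (adjusted p = 0.0739) and 4.11 in animal 23 alone (adjusted p = 0.0377). These levels rest on 9 to 541 counts in the A clones and 0 to 77 in the N clones. The ligand ALKAL1 was left out of the 20-clone test by the filter on low counts. It was at 0.954 ± 1.24 CPM in A clones and 0.305 ± 0.564 CPM in N clones (SD, n = 10 each). A fit with no filter gave ALKAL1 a log2 fold change of 1.99 (SE 0.989, adjusted p = 0.2). ALKAL2 reached at most 0.109 CPM in any clone.

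**Figure D3:**
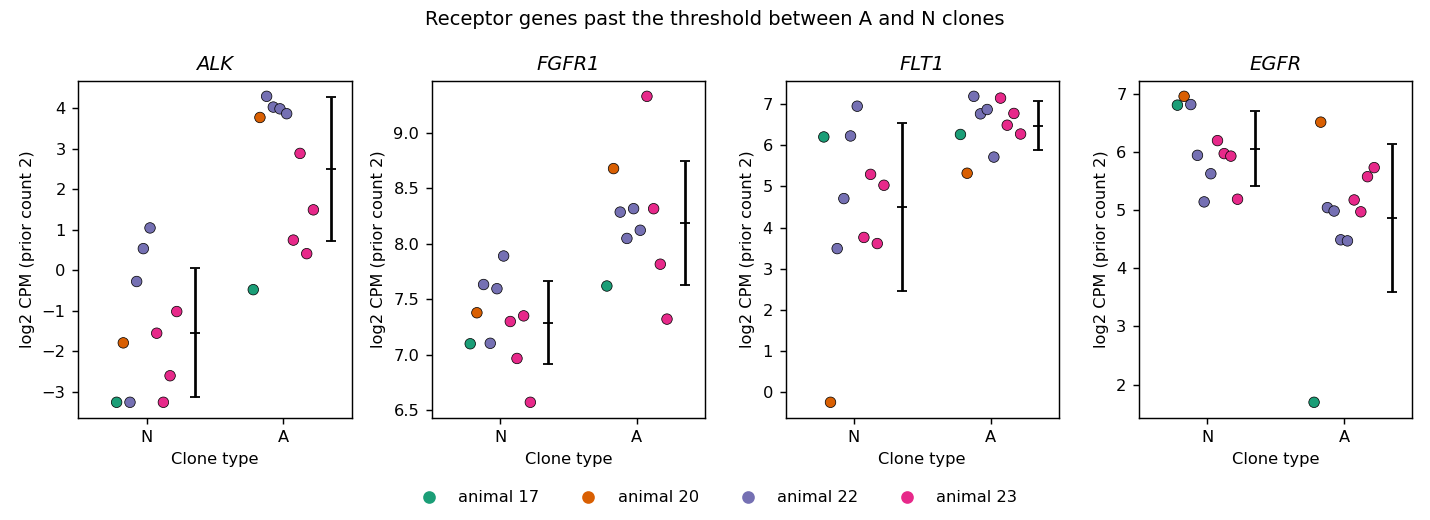
Log2 CPM (prior count 2) of ALK, FGFR1, FLT1 and EGFR in each clone, coloured by animal, with the mean and SD of each group at its right. For ALK and FGFR1, 7 of 10 A clones lie above all N clones, and for EGFR 6 of 10 A clones lie below all N clones, while the FLT1 points of the groups overlap more.

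Of the 4 FGF receptors, FGFR1, the main FGF receptor of mesenchymal cells, was higher in A clones. It ran from 160 to 642 CPM in A clones (median 295) and from 95 to 237 CPM in N clones (median 160). Again 7 of 10 A clones were above all N clones, the exceptions being 17-57, 23-68 and 23-108. The log2 fold change was 0.95 (SE 0.214, adjusted p = 0.00686), just short of 2-fold, and it passed the threshold without any single clone.

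FGFR2, whose splice forms divide between epithelial and mesenchymal cells, ran from 0.341 to 20.9 CPM in A clones (median 12.2) and from 0.0972 to 16.4 CPM in N clones (median 1.19). The groups overlapped, and the log2 fold change of 2.21 (SE 0.938) did not pass the test (adjusted p = 0.101). It did pass without N clone 17-23, N clone 22-18 or A clone 17-57, with adjusted p-values of 0.0451, 0.0469 and 0.0452. FGFR3, known as a brake on growth of cartilage, was at 2.11 ± 2.03 CPM in A and 3.28 ± 3.32 CPM in N clones (adjusted p = 0.48). FGFR4, the hepatic receptor, had 4 counts in all.

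EGFR, the receptor for EGF, TGFA and related growth factors, was lower in A clones. It ran from 3.13 to 91.5 CPM in A clones (median 32.3) and from 35.3 to 125 CPM in N clones (median 62.2). A clone 17-57 was lowest by far and A clone 20-106 was highest of its group, and in both animals the N clone was higher still, at 112 and 125 CPM. The log2 fold change was -1.10 (SE 0.362, adjusted p = 0.0407), with 6 of 10 A clones below all N clones. The call was lost when any 1 of 11 clones was left out (N 22-5, 22-9, 23-10, 23-22 and 23-23, and A 22-11, 22-16, 22-27, 22-121, 23-14 and 23-62), with adjusted p-values up to 0.0775.

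ERBB2, which has no ligand of its own and acts as the common dimer partner of EGFR, was at 41.3 ± 8.37 CPM in A and 45.5 ± 7.19 CPM in N clones, with a log2 fold change of -0.15 (SE 0.0886, adjusted p = 0.233). The neuregulin receptors ERBB3 and ERBB4 did not pass the filter. They were highest in N clones 22-5 and 22-9, at 0.395 and 1.08 CPM for ERBB3 and at 2.65 and 1.2 CPM for ERBB4, and no other clone exceeded 0.272 and 0.504 CPM.

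Among the VEGF receptors, FLT1, which binds VEGFA, VEGFB and PGF and also gives rise to a soluble decoy, was higher in A clones. It ran from 39.9 to 146 CPM in A clones (median 99.3) and from 0.737 to 124 CPM in N clones (median 29.3). The groups overlapped, since N clone 22-18 was at 124 CPM and N clones 22-17 and 17-23 at 74.9 and 73.7 CPM, while N clone 20-15 was almost without it. The log2 fold change was 1.60 (SE 0.502, adjusted p = 0.0331). It was lost without any 1 of 6 clones (N 22-9, 23-10, 23-23 and 23-74, and A 22-11 and 23-14), with adjusted p-values up to 0.0597.

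KDR, the main signalling receptor for VEGFA in endothelium, had 22 counts over all clones, and FLT4, the VEGFC receptor of lymphatic vessels, had 8, all of them in A clones 22-16, 22-27 and 22-121. The angiopoietin receptor TEK was at 1.19 ± 0.604 CPM in A and 1.34 ± 1.04 CPM in N clones (log2 fold change -0.04, SE 0.302, adjusted p = 0.947), and its partner TIE1 had 27 counts in all. The 4 endothelial markers summed to 3.59 to 22.9 CPM in A and 0.96 to 37.6 CPM in N clones, and PECAM1 had a log2 fold change of 2.49 (adjusted p = 0.0675). The part of these markers in the FLT1 result was not tested. Each clone was grown from a single sorted cell. Bulk RNA does not tell how many cells of a clone carry a transcript from how much each carries.

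NTRK2, the receptor for BDNF and NTF4, had the largest residual SD of the receptor genes tested. It ran from 0.545 to 41.9 CPM in A clones (median 27.3) and from 0.12 to 56.9 CPM in N clones (median 6.71). The groups overlapped almost fully, and the direction was not shared: the A clone was lower than the N clone in animals 17 (0.545 against 3.76 CPM) and 20 (5.64 against 56.9 CPM). Over all animals the log2 fold change of 1.97 (SE 1.14) did not pass the test (adjusted p = 0.22), and without the clones of animal 23 it turned to -0.32.

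Animals 22 and 23 allowed a test of whether the A against N difference itself differed between animals. In animal 22, NTRK2 was at 9.67, 13.2, 15.0 and 21.1 CPM in the N clones and at 4.81, 21.9, 27.2 and 41.9 CPM in the A clones. In animal 23, it was at 0.12, 0.194, 0.253 and 0.472 CPM in the N clones and at 27.3, 28.9, 34.3 and 39.8 CPM in the A clones. The N clones of animal 23, with a few counts each, were thus the low group, and the A clones of both animals overlapped.

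The difference between animals in the A against N change of NTRK2 was 6.25 on the log2 scale (SE 0.76, adjusted p = 0.0127). NTRK2 was the only receptor gene of the 24 tested in these 16 clones to pass, where 0.0288% of all genes did. The call was lost without N clone 23-23 (6.03, adjusted p = 0.0505) or N clone 23-74 (6.13, adjusted p = 0.0707). BDNF, its ligand, was at 37.9 ± 7.93 CPM in A and 34.4 ± 12.8 CPM in N clones (adjusted p = 0.426), and NTF4 reached at most 0.163 CPM. NTRK3, the receptor for NTF3, had 5 counts in all and NTF3 at most 0.063 CPM. S100B, a Schwann cell marker that other cells share, was higher in A clones (log2 fold change 0.92, adjusted p = 0.00692), with the defining marker SOX10 at 0.

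The same 16 clones showed where the animals themselves differed. Between the N clones of animals 23 and 22, NTRK2 was lower in animal 23 with a difference of -5.80 (SE 0.616, adjusted p = 0.00124), FGFR2 was lower with -5.09 (SE 0.976, adjusted p = 0.0298), and KIT was higher with 7.66 (SE 1.33, adjusted p = 0.0188), all on the log2 scale. Of all genes, 0.793% were lower and 0.303% higher in that comparison. Between the A clones of these animals no receptor gene passed with edgeR, nor did any of the 13880 genes (0%), although 3 receptor genes and 863 genes overall had an unadjusted p under 0.05. DESeq2 also called no receptor gene there, and 25 genes higher and 11 lower overall. It is a comparison of 1 animal with 1 other.

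FGFR2 was at 0.0972 to 0.42 CPM in the N clones of animal 23, against 0.169, 3.78, 9.86 and 16.4 CPM in those of animal 22. A clones were at 4.72 to 20.9 CPM in animal 23 and 13.4 to 18.6 CPM in animal 22. N clone 22-5 thus lay with the N clones of animal 23. The FGFR2 call between N clones was lost without any 1 of the 4 N clones of animal 23, with adjusted p-values from 0.0708 (N 23-23) to 0.0997 (N 23-22). Without N clone 22-5, FGFR2 passed the test of the difference between animals, at 5.11 (SE 0.765, adjusted p = 0.0391).

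KIT, the stem cell factor receptor of blood, germ and pigment cells, was high in clones of animal 23. Its N clones were at 35.2, 42.5, 72.7 and 121 CPM, and A clone 23-108 was at 15.4 CPM. All other clones were at 1.44 CPM or less, and all 4 clones of animals 17 and 20 had no count. KIT was left out of the 20-clone test by the filter on low counts, and a fit with no filter gave it a log2 fold change of -2.16 (SE 1.16, adjusted p = 0.243). The call between N clones was lost without N clone 22-9 (adjusted p = 0.0542) or 23-23 (adjusted p = 0.0502). PTPRC, the pan-blood marker, reached at most 0.253 CPM in any clone, and KITLG, the ligand, was at 24.1 ± 9.02 CPM in A and 32.8 ± 24.3 CPM in N clones.

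**Figure D4:**
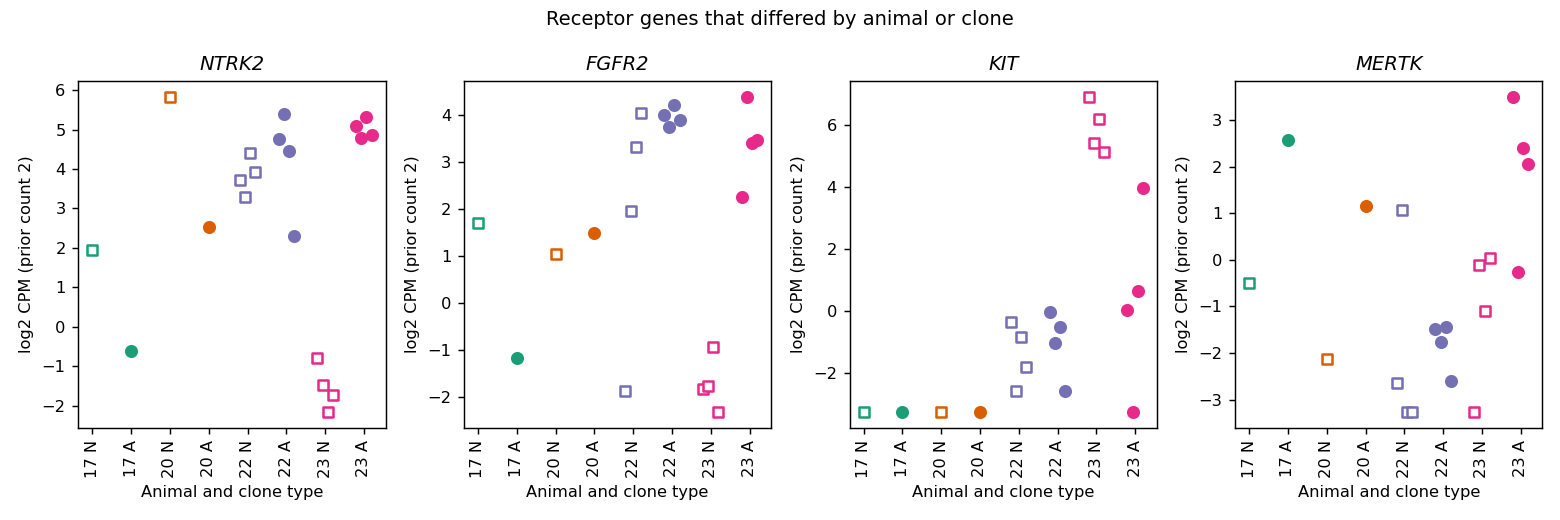
Log2 CPM (prior count 2) of NTRK2, FGFR2, KIT and MERTK in each clone, arranged by animal and clone type, with open squares for N and filled circles for A clones. The 4 N clones of animal 23 lie apart from its A clones for NTRK2 and FGFR2 (low) and for KIT (high), and the MERTK points of animals 22 and 23 differ among the A clones.

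With 4 clones of each type, animal 23 alone called ALK, FGFR2, FLT1 and NTRK2, all higher in A clones, where 4.14% of all genes were higher and 2.09% lower. The log2 fold changes of FGFR2 and NTRK2 there were 5.72 (adjusted p = 0.00786) and 6.94 (adjusted p = 0.000212). Animal 22 alone called none of 22 receptor genes in edgeR, with 6 at an unadjusted p under 0.05, where 1.15% of all genes were called. The difference between the animals in the A against N change had an adjusted p of 0.982 for ALK, 0.678 for FLT1 and 0.342 for FGFR2. With the clones of animal 23 left out no receptor gene passed in edgeR (3 at an unadjusted p under 0.05), where 0.245% of all genes did. With counts summed per animal and condition, neither a receptor gene nor any other gene passed in edgeR (0%), with 3 receptor genes and 2243 genes in all at an unadjusted p under 0.05.

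MERTK, AXL and TYRO3 form the TAM family, whose ligands GAS6 and PROS1 bridge them to phosphatidylserine on dying cells. AXL ran from 294 to 637 CPM in A and from 196 to 582 CPM in N clones (log2 fold change 0.27, SE 0.186, adjusted p = 0.298). TYRO3 was at 47.7 ± 44.6 CPM in A and 84.3 ± 61.7 CPM in N clones (adjusted p = 0.239). MERTK was at 0.0609 to 11.2 CPM in A clones (median 1.42) and 0 to 1.98 CPM in N clones (median 0.241).

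The A clones of animal 22 were at 0.263 CPM or less for MERTK, and those of animal 23 at 0.735 to 11.2 CPM. The highest N clone was 22-9. The log2 fold change of 1.84 (SE 1.06) did not pass over all clones (adjusted p = 0.221), and without N clone 22-9 it was 3.38 (SE 0.614, adjusted p = 0.00355). CD68, a macrophage marker that other cells also make, was higher in A clones (log2 fold change 1.06, adjusted p = 0.0157), and its relation to the MERTK levels was not tested.

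INSR and IGF1R bind insulin and the insulin-like growth factors. INSR was at 18.5 ± 5.82 CPM in A and 14.8 ± 12.1 CPM in N clones, with a log2 fold change of 0.63 (SE 0.296, adjusted p = 0.133). N clone 22-9 was highest of all 20 at 44.1 CPM. Without that clone the log2 fold change was 0.86 (SE 0.231) and passed the test (adjusted p = 0.0231). IGF1R was at 88.7 ± 36.0 CPM in A and 74.2 ± 29.5 CPM in N clones (log2 fold change 0.25, SE 0.216, adjusted p = 0.414).

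MET, the receptor for hepatocyte growth factor, and MST1R, its relative that binds MST1, did not pass the test. MET ran from 47.3 to 143 CPM in A and from 51.1 to 280 CPM in N clones, with a log2 fold change of -0.47 (SE 0.309, adjusted p = 0.282). MST1R was at 2.23 ± 0.93 CPM in A and 2.90 ± 3.02 CPM in N clones (adjusted p = 0.912).

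DDR1 and DDR2 are the receptors for collagen, DDR1 mainly of epithelia and DDR2 of mesenchyme. DDR1 was at 53.6 ± 21.7 CPM in A and 77.0 ± 42.0 CPM in N clones (log2 fold change -0.56, SE 0.295, adjusted p = 0.177). DDR2 ran from 119 to 423 CPM in A and from 83.3 to 573 CPM in N clones (log2 fold change -0.28, SE 0.269, adjusted p = 0.479).

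The 2 mesothelial-marker N clones, 22-5 and 22-9, were the highest of all 20 clones for 4 receptor genes, ERBB3, ERBB4, MET and DDR1. MET was at 280 and 208 CPM in them and at most 145 CPM elsewhere, and DDR1 at 133 and 166 CPM and at most 105 CPM elsewhere. For DDR2 (83.3 and 189 CPM) and ROR2 (44.3 and 68.3 CPM) they lay below the other 8 N clones. Without these 2 clones the log2 fold changes between A and N clones were -0.10 for MET and -0.08 for DDR1. They were -0.475 for DDR2, -0.09 for ROR2, -0.22 for TYRO3 and 0.03 for FGFR3, and none of these genes passed (adjusted p = 0.142 to 0.974).

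Without these 2 clones 4 of 24 receptor genes passed the test, all higher in A clones, where 8.27% of all genes were higher and 5.91% lower: ALK (4.02, adjusted p = 0.000929), FGFR1 (0.94, adjusted p = 0.0192), INSR (0.87, adjusted p = 0.0303) and MERTK (3.49, adjusted p = 0.0041). EGFR (-0.86, adjusted p = 0.136) and FLT1 (1.41, adjusted p = 0.0722) did not. NTRK2 and FGFR2 then both passed the test of the difference between animals, at 6.55 and 5.50 (adjusted p = 0.00983 for each), where 0.0972% of all genes passed. NTRK2 and FGFR2, but not KIT (adjusted p = 0.0542), passed between the N clones, both lower in animal 23, as were 1.28% of all genes.

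ROR1, ROR2, PTK7 and RYK bind Wnt proteins or act beside Frizzled receptors, and RYK and PTK7 are held to lack kinase activity. None passed the test. ROR2 ran from 53.2 to 155 CPM in A and from 44.3 to 142 CPM in N clones, and RYK from 89.1 to 168 CPM and from 108 to 204 CPM. The log2 fold changes were -0.15 for ROR1, 0.07 for ROR2, 0.36 for PTK7 and -0.12 for RYK, with adjusted p-values from 0.209 (PTK7) to 0.831 (ROR2). LMTK2, a membrane kinase of vesicle traffic, was at 83.0 ± 20.0 CPM in A and 99.2 ± 25.6 CPM in N clones (adjusted p = 0.221).

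RET, the receptor for GDNF family ligands, had 1 to 27 counts in each clone and did not pass the filter. ROS1, an epithelial receptor for NELL2, had 37 counts in N clone 17-23, 1 in N clone 20-15 and none in the other 8 N clones, while 8 of 10 A clones had a count, up to 0.864 CPM. In a fit with no filter its log2 fold change was 3.41 (SE 1.05, adjusted p = 0.0409), although the mean level was 0.268 CPM in A and 0.208 CPM in N clones. MUSK, of the neuromuscular junction, had 38 counts in all, STYK1 24 and FLT3, of blood progenitors, 2.

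The other genes of these pathways were counted by role. Of 37 ligands, 36 were in the table, 21 were tested and 6 passed, 4 higher and 2 lower in A clones, which is 28.6% against 20.6% of all genes tested. VEGFC, which acts through FLT4 and KDR, was higher, at 159 ± 45.5 against 59.0 ± 42.7 CPM (log2 fold change 1.59, SE 0.31, adjusted p = 0.00327). GAS6, the TAM ligand, was lower, at 47.8 ± 34.4 against 198 ± 102 CPM (-2.10, SE 0.441, adjusted p = 0.00503). ARTN, a RET ligand, was higher, at 11.3 ± 8.63 against 2.07 ± 2.10 CPM (2.70, SE 0.645, adjusted p = 0.0095).

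VEGFC and ARTN were thus higher in A clones whose receptors FLT4, KDR and RET had few or no counts. The co-receptors NRP2 and GFRA3 were at 69.7 to 242 CPM and 1.63 to 14.9 CPM in A clones. In N clones they were at 14.1 to 177 CPM and 2.22 to 10.6 CPM. The other 3 ligands that passed were VEGFA (0.71, adjusted p = 0.0202), the EGFR ligand TGFA (3.36, adjusted p = 0.0361) and FLT3LG (-1.02, adjusted p = 0.0368). TGFA was lost without any 1 of 8 clones (both clones of animals 17 and 20 and the 4 N clones of animal 23), with adjusted p-values up to 0.0689. FLT3LG was lost without any 1 of 11 (both clones of animals 17 and 20, N 22-9, 23-10, 23-22 and 23-74, and A 22-27, 23-68 and 23-108), with adjusted p-values up to 0.0745.

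None of the 7 co-receptors tested, of 11 listed, passed in edgeR, none had an unadjusted p under 0.05, and DESeq2 with the animal also called none. NRP2, SORT1 and the neurotrophin co-receptor NGFR had log2 fold changes of 0.63, 0.46 and -0.92 (adjusted p = 0.179, 0.254 and 0.257). Of 21 adaptors, 18 were tested and 2 passed, which is 11.1% against 20.6% of all genes tested. CBL, the ubiquitin ligase that marks activated receptors for degradation, was at 46.3 ± 6.65 CPM in A and 32.8 ± 7.21 CPM in N clones (log2 fold change 0.50, SE 0.109, adjusted p = 0.00551). DOK7, the cytoplasmic activator of MUSK, was lower at 0.214 ± 0.316 against 1.23 ± 0.785 CPM (-2.78, SE 0.513, adjusted p = 0.00251), with 9 of 10 A clones below all N clones. SOS1, a RAS exchange factor, had a log2 fold change of -0.18 (adjusted p = 0.0728).

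All 21 feedback inhibitors and ERK target genes were tested, and 7 passed, 6 higher and 1 lower in A clones, that is 33.3% against 20.6% of all genes. 18 of the 21 had a positive log2 fold change, as had 6290 of all 12900 genes tested. The median was 0.48, against -0.01 over all genes. ERRFI1, an inducible inhibitor of EGFR family kinases, was at 458 ± 152 CPM in A and 178 ± 116 CPM in N clones (1.43, SE 0.254, adjusted p = 0.00199). DUSP5, a nuclear ERK phosphatase, was at 83.9 ± 50.2 against 30.2 ± 14.6 CPM (1.59, SE 0.341, adjusted p = 0.00547). SPRED2, which blocks RAF activation, was at 124 ± 69.7 against 53.2 ± 15.8 CPM (1.19, SE 0.278, adjusted p = 0.00852).

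SPRED1 (0.81, adjusted p = 0.0101), SPRED3 (0.65, adjusted p = 0.0238) and PHLDA1 (0.84, adjusted p = 0.00979) were higher as well. SPRED3 was lost without either clone of animal 17 or 20, with adjusted p-values up to 0.0521. PTPRB, a phosphatase known from endothelium where it acts on TEK, was lower, at 1.74 ± 3.97 against 17.7 ± 14.0 CPM (-3.87, SE 0.908, adjusted p = 0.00878). The Sprouty genes SPRY1, SPRY2 and SPRY4 had log2 fold changes of -0.26, 0.54 and 0.57 (adjusted p = 0.631, 0.117 and 0.115).

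Of these 4 lists together 15 of 67 tested genes passed, 22.4% against 20.6% of all genes. Without N clones 22-5 and 22-9, 12 of 67 passed, 17.9% against 14.2% of all genes, when VEGFA (0.56, adjusted p = 0.0536), FLT3LG (adjusted p = 0.0915) and SPRED3 (adjusted p = 0.0697) were lost.

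**Figure D5:**
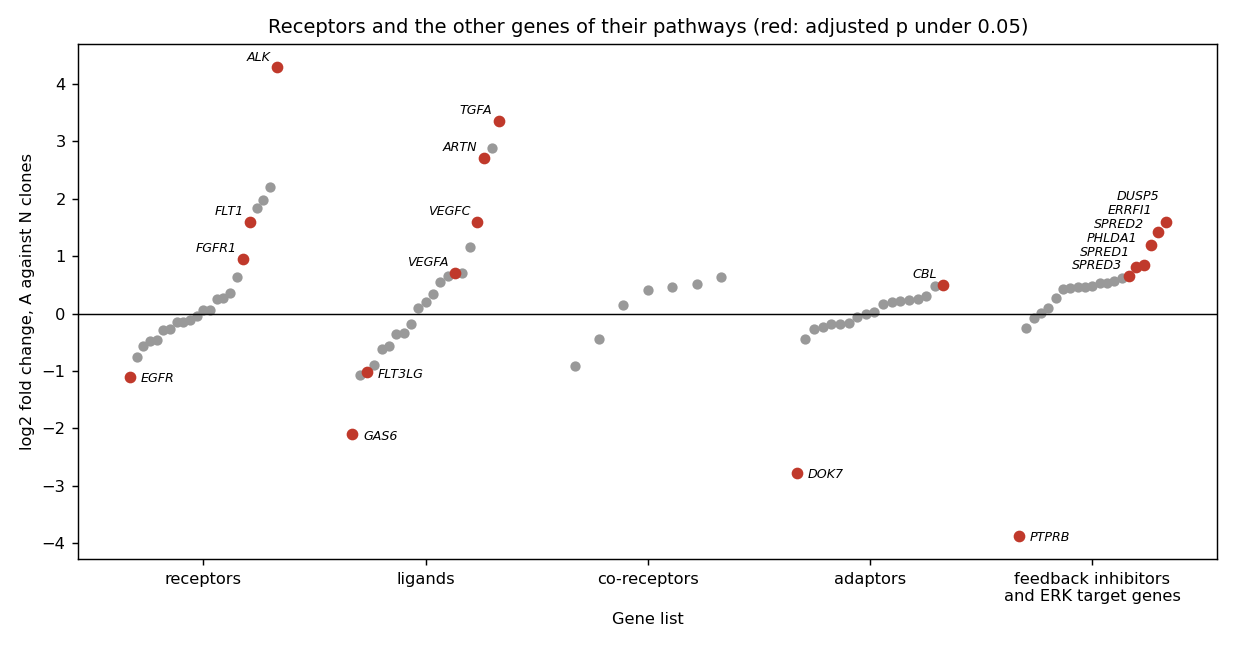
Log2 fold change between A and N clones for every tested receptor, ligand, co-receptor, adaptor and feedback or ERK target gene, ordered by value within each list, with genes at an adjusted p under 0.05 in red and named. The feedback and ERK target genes lie mostly above 0 (18 of 21, where 6290 of all 12900 genes tested do), and no co-receptor is red.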

How the data were processed

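RNA of 20 clones was sequenced as paired reads. Per the study's methods and the submitters' processing notes, the authors used bcl2fastq 2.20, Trimmomatic 0.36, STAR 2.5.2b and featureCounts of Subread 1.5.2 to count uniquely mapped reads in exons (ARS-UCD1.2). The library kit was directional, and the strand setting of the counting is not given in the sources used here. The deposited values were raw counts per gene symbol. 1 row without a name, 0.113 to 0.333% of a clone's counts, was left out.

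edgeR 4.0.16 (R 4.3.3) fitted a robust quasi-likelihood model with animal and condition to genes past filterByExpr, with TMM scaling and Benjamini-Hochberg adjustment over all genes tested; every adjusted p without another tool named comes from it. The A clones were selected by the study for differentiation capacity, with as many N clones per animal. Deviations from the group means of clones of the same animal correlated at 0.253, 0.193, 0.241 and 0.44 in animals 17, 20, 22 and 23. A model with a term for each animal and condition was fitted to the 16 clones of animals 22 and 23. CPM are counts scaled to a common size by the TMM-scaled library of tested genes, and ± is the SD. Fits were tested on simulated data. DESeq2 1.42.0 was an alternative, together with other scalings, filters and clone sets.

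The receptor genes and all lists were chosen with earlier results of these data known. Values are given for every receptor gene, and in the other lists for the 3 genes of smallest adjusted p and the ALK and NTRK ligands, of which 1 is not reported here. The other named genes, and the fit without N clones 22-5 and 22-9, were chosen after their values were seen. Sequences and gene positions are not used here.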

Additional observations from a re-analysis of the deposited data

Results flagged for a closer look

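9 of the 46 groups of 10 clones held a clone far from the others. The measure was Dixon's ratio of its gap to the range of the group, on log2 CPM, against its 95% critical value. Chance gives about 1 in 20 groups if the 10 values are independent and normal, whereas clones here share animals. A clone 17-57 was lowest for NTRK2 (ratio 0.486), EGFR (0.576), FGFR2 (0.477) and ROR1 (0.487) and highest for FGFR3 (0.594, at 7.76 CPM against 2.08 CPM for the next clone). A clone 20-106 was highest for ERBB2 (0.468) and LMTK2 (0.49) and lowest for INSR (0.74, at 3.97 CPM against 15.5 CPM). N clone 20-15 was lowest for FLT1 (0.519, at 0.737 CPM against 11.1 CPM). These 3 clones come from the animals that gave 1 clone of each type, so clone and animal cannot be told apart. The A against N change of NTRK2 was larger in animal 23 than in animal 22 by 6.25 on the log2 scale (SE 0.76, adjusted p = 0.0127).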

How the results depend on the processing

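Of the receptor genes, 4 passed between A and N clones. ALK and FGFR1 passed without any single clone, and the count then ran from 2 to 5. Without the animal term, the replicate block, 2 passed (ALK and FGFR1), where 1029 of all 12900 genes were higher and 1139 lower. With DESeq2 and the animal 6 passed (FGFR2 and NTRK2 added), where 1839 of all genes were higher and 1689 lower. The main fit called 1333 higher and 1325 lower. None passed in edgeR with counts summed per animal and condition (3 at an unadjusted p under 0.05), in animal 22 alone (6) or without animal 23 (3), where 0%, 1.15% and 0.245% of all genes passed, so these counts say nothing particular to the receptors, and the cause was not tested. NTRK2 reversed to -0.326 with summed counts and to -0.323 without animal 23. ALK kept its direction in all 33 alternatives, at 3.98 to 4.66. With no filter, EGFR (adjusted p = 0.0577) and FLT1 (adjusted p = 0.0553) were lost and ROS1 was called, over 23383 genes. At 10 counts or more in every clone ALK was not tested.

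The difference between animals called 1 receptor gene, 2 with DESeq2 or without N clones 22-5 and 22-9, and 0 to 2 when single clones were left out. Of all 13880 genes, DESeq2 called 84 higher and 39 lower there, against 3 and 1 in edgeR. Between N clones the receptor count was 3, 6 with DESeq2 (FGFR3, INSR and ROR1 added), and 1 to 3 without single clones. Of all genes, DESeq2 called 256 higher and 647 lower between N clones, against 42 and 110 in edgeR. Between A clones the receptor count was 0 throughout. Of the ligands, co-receptors, adaptors and feedback genes 15 of 67 passed, 6 in animal 23 alone, and none in edgeR with summed counts (21 at an unadjusted p under 0.05), in animal 22 alone (14) or without animal 23 (17). Low counts limit ALK, MERTK and KIT in most N clones, and the 4 animals limit any statement beyond these clones.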
